A study of Mus musculus with 13 samples.

Results

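Cdkn1a and 8 other transcriptional targets of p53 (Mdm2, Ccng1, Phlda3, Bax, Bbc3, Zmat3, Eda2r and Trp53inp1) were followed through gastrocnemius muscle of obese mice that received semaglutide with or without a ketone ester. The 9 genes were chosen by name from the 21868 genes in the table of normalized counts, as a list of p53 targets to set beside Cdkn1a. Earlier results of these data were known at that choice. All 9 had a mean of at least 10 normalized counts and so were among the 12303 genes tested.

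RNA was sequenced from whole gastrocnemius of 13 male C57BL/6N mice, 1 library per mouse. The animals arrived at 7 weeks of age, were acclimatized for 1 week, ate a diet with 60 kcal% fat for 15 to 17 weeks to become obese, and were then moved to regular chow, so every group, vehicle included, was obese and had just changed diet. For the 3 weeks on chow, 5 mice received vehicle (PBS), 5 received semaglutide, an agonist of the GLP-1 receptor, at 30 nM/kg/day by intraperitoneal injection, and 3 received the same semaglutide while drinking water that held a ketone ester (0.114 g/mL). The labels add a placebo for the vehicle and semaglutide groups and do not say what it was. There was no group on ketone ester alone, so an effect of the ester without semaglutide cannot be read from these data. The libraries held 15319471 to 23498162 reads assigned to genes.

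p53 is a transcription factor that is held at a low level by the ubiquitin ligase Mdm2 and is stabilized by DNA damage and other stresses. Its targets halt the cell cycle (Cdkn1a, which encodes the cyclin-dependent kinase inhibitor p21), promote cell death through the mitochondria (Bax, Bbc3) and feed back on p53 itself (Mdm2). In skeletal muscle Cdkn1a is also known to rise with denervation and disuse, and Eda2r, a death-receptor relative that binds ectodysplasin A2, has been linked to muscle wasting.

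One library stood apart from its group and touches every comparison with semaglutide. On the first principal component of all genes tested, which held 38.1% of the variance, semaglutide mouse 13 lay at -9.12, whereas the rest of its group spanned 31.8 to 52.5, the vehicle-treated mice between -24.5 and -12.8 and the semaglutide + ketone ester–treated mice between -25.6 and -15.8. Nothing in the labels or values shows whether this mouse was dosed or labelled as stated, so every semaglutide mean, SD and fold change that includes it carries that doubt. The calls are therefore given with all mice and, where they change, without mouse 13. The labelled tissue was borne out by its markers. The summed level of Acta1, Ckm, Myh4, Myh1 and Tnnt3 was 2184110 to 2683990 normalized counts under vehicle, 1368920 to 2441580 under semaglutide and 2813870 to 3323870 under semaglutide + ketone ester, so this summed fibre signal moved with the groups. Not every gene in it did. Under semaglutide Acta1 (log2 fold change -0.46) and Myh4 (-0.60) were called lower, while Ckm (-0.12), Tnnt3 (-0.27) and Myh1 (0.10) were not called. None of the 3 or 4 markers of each other cell type examined was at 0 in every mouse. The 4 fibroblast markers (Pdgfra, Dcn, Col1a1, Col3a1) summed to 4924 to 11241, 4490 to 6032 and 6253 to 10496 in the 3 groups in that order, and among them Col1a1 (log2 fold change -3.02, adjusted p = 0.00074, limma) and Col3a1 (-3.14, adjusted p = 0.00026) fell under semaglutide and rose with the ketone ester against semaglutide (3.03 and 2.64). The 3 erythrocyte markers (Hba-a1, Hbb-bs, Alas2) summed to 1001 to 1723, 36.9 to 2326 and 2077 to 4178 in the same order, the 3 tendon markers (Tnmd, Scx, Fmod) to 546 to 4491, 307 to 1668 and 2136 to 2525, and the 3 smooth muscle markers (Myh11, Acta2, Rgs5) to 5880 to 8025, 3286 to 5090 and 5798 to 6685. Tnmd (-3.43) and Fmod (-2.22) fell under semaglutide. Scx went the other way, at 0.29 (adjusted p = 0.47, limma), and fell with the ketone ester against semaglutide (-1.07, adjusted p = 0.035). The part of tissue composition in the results was not tested, and in whole muscle fewer cells of a type and less RNA per cell cannot be told apart.

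The sequences just upstream of 4 genes are shown because these genes went 3 different ways in the muscle: Cdkn1a and Eda2r were higher under semaglutide, Ccng1 was lower and Mdm2 did not pass the test. Each is the 250 bases before an annotated start in RefSeq (GRCm38.p6), 5′ to 3′ on the gene's own strand, with matches to the 10-base p53 half-site in capitals. Cdkn1a lies at chr17:29090729-29090978 on the plus strand, Eda2r at chrX:97377210-97377459, Ccng1 at chr11:40755287-40755536 and Mdm2 at chr10:117710759-117711008, all 3 on the minus strand.
Cdkn1a: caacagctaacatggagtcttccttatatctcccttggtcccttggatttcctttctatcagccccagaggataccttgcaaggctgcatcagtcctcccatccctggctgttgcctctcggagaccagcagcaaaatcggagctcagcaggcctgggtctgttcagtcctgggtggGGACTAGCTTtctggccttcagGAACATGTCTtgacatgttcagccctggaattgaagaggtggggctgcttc
Eda2r: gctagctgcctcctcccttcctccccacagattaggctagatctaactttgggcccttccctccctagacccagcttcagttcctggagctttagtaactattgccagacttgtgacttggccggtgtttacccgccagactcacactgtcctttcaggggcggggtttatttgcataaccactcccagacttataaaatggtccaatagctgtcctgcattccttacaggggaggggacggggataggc
Ccng1: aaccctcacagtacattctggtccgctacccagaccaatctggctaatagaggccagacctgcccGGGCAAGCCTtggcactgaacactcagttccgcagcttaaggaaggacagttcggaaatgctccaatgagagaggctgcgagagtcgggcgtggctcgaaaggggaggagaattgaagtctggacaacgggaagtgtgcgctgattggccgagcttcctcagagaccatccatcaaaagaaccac
Mdm2: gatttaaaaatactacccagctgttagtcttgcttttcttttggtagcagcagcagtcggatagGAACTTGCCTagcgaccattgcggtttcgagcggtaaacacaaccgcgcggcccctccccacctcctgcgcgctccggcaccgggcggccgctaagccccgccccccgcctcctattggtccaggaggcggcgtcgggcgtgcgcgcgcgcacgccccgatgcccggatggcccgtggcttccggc

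The Cdkn1a window held 2 half-sites, at -73 to -64 and -51 to -42 from the start and therefore close enough to be counted as a pair. A pair with at most 13 bases between its sites was found in 21 of 32851 upstream windows of 250 bases (0.0639%). At least 1 half-site was found in 7.13%, searched on both strands. Ccng1 and Mdm2 held 1 half-site each, as did Bax, and Eda2r, Phlda3, Bbc3 and the second annotated start of Cdkn1a held no match. Zmat3 and Trp53inp1 had no entry in the set of starts used here, so 7 of the 9 genes were searched. A match is a description of letters, and neither its presence nor its absence shows whether p53 was bound. Ccng1, which carries a half-site, was lower under semaglutide, and Eda2r, which has none in this window, was higher.

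In vehicle-treated muscle the members were expressed at very different levels. Per kilobase of exon (GENCODE M21), Ccng1 stood at 4391 ± 269 normalized counts (SD, n = 5) and Phlda3 at 2437 ± 156, far above Mdm2 at 191 ± 12.6. Bax (83.9 ± 6.27), Cdkn1a (67.2 ± 19.9) and Eda2r (63.5 ± 14.2) followed, and these neighbours overlapped from mouse to mouse. Trp53inp1 (32.1 ± 10.2) and Zmat3 (20.1 ± 2.63) also overlapped each other, and Bbc3 was lowest at 6.66 ± 2.29. Bbc3 was counted from only 8 to 64 reads per library, so its level is the least precise, whereas Ccng1 was counted from 7028 to 20300.

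Under semaglutide, 4 of the 9 targets rose against vehicle (Cdkn1a, Eda2r, Bbc3 and Bax), 1 fell (Ccng1) and 4 did not pass the test (Mdm2, Phlda3, Zmat3 and Trp53inp1), by limma on log2(normalized count + 1) with Benjamini-Hochberg adjustment over all genes tested. Among all genes tested, 11.9% were called higher and 13.2% lower in the same comparison. The median log2 fold change was 0.33 over the 9 targets, Cdkn1a included, and -0.0029 over all genes tested. In none of the 9 were the vehicle and semaglutide groups fully separate, and among all genes tested 7.22% lay higher and 7.45% lower in every semaglutide-treated mouse. Without semaglutide mouse 13, 5 targets were higher and 1 was lower, beside 17.3% and 18.8% of all genes.

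**Figure D1:**
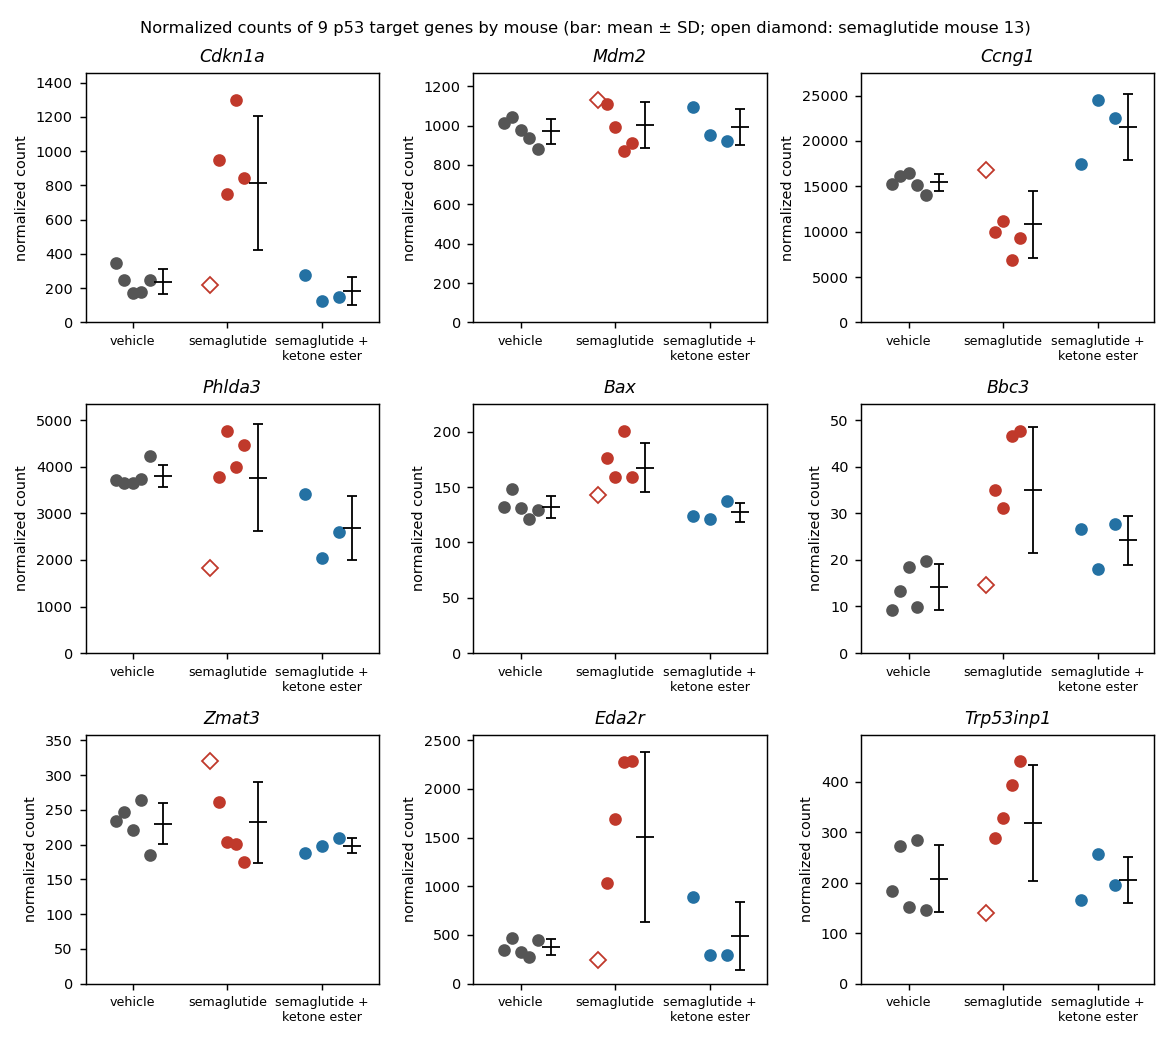
Normalized counts (y axis, from 0) of the 9 p53 targets in each mouse (x axis, by group), with bars for the mean ± SD and an open diamond for semaglutide mouse 13. For Cdkn1a, the 4 other semaglutide-treated mice sit between 748 and 1299, above all 9 remaining mice (126 to 347), while for Ccng1 they sit between 6825 and 11140, below all 9 (14029 to 24521).

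Cdkn1a (chr17:29090976-29100727, plus strand, GRCm38) encodes p21. Vehicle-treated mice 1 to 5 had 347, 250, 172, 177 and 247 normalized counts, semaglutide-treated mice 13 to 17 had 220.5, 950, 748, 1299 and 841, and semaglutide + ketone ester–treated mice 19, 21 and 22 had 274, 126 and 148. All semaglutide-treated mice but mouse 13 lay above every vehicle-treated mouse, and mouse 13 lay inside the vehicle range. The group means were 239 ± 70.8 (SD, n = 5) and 812 ± 391 (SD, n = 5), a log2 fold change of 1.60 (SE 0.41, adjusted p = 0.016, limma). This call was kept in all 13 fits that left out 1 mouse and in all 12 other settings, with log2 fold changes from 1.38 to 2.02. A provisional gene model (AC167363.2) overlaps 273 exon bases of Cdkn1a on the opposite strand.

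Eda2r (chrX:97333840-97377216, minus strand) is the receptor for ectodysplasin A2. Vehicle-treated mice 1 to 5 had 349, 468, 322, 277 and 453 normalized counts, semaglutide-treated mice 13 to 17 had 245, 1036, 1691, 2275 and 2284, and semaglutide + ketone ester–treated mice 19, 21 and 22 had 894, 290 and 293. Mouse 13 was again the low animal and had the lowest value of all 13, and mouse 19 was the high animal among those on ketone ester. Semaglutide against vehicle gave a log2 fold change of 1.68 (SE 0.55, adjusted p = 0.043, limma), which became 2.24 (adjusted p = 0.00065) without mouse 13. The call was lost, with adjusted p up to 0.107, on leaving out any 1 of the other mice except mouse 19, and in 3 of the 12 other settings.

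Of the activators of mitochondrial cell death, Bbc3 (PUMA, a BH3-only protein, chr7:16308393-16318205, plus strand) had 9.15, 13.2, 18.6, 9.98 and 19.8 normalized counts under vehicle and 14.5, 34.9, 31.1, 46.6 and 47.7 under semaglutide, the first of these being mouse 13. It rose with a log2 fold change of 1.20 (SE 0.31, adjusted p = 0.016, limma), and the call held in all 13 fits without 1 mouse. With semaglutide + ketone ester it had 26.7, 18.1 and 27.6, between the other groups and overlapping both.
Bax (the pore-forming effector of the same pathway, chr7:45461697-45466898, minus strand) moved far less, from 132 ± 9.89 (SD, n = 5) to 168 ± 22.0 (SD, n = 5), a log2 fold change of 0.33 (SE 0.097, adjusted p = 0.027, limma). Single semaglutide-treated mice had 143, 176, 159, 201 and 159, and vehicle-treated mice 132, 148, 131, 121 and 129, so only mouse 13 fell inside the vehicle range. The Bax call was lost when vehicle mouse 1, 3, 4 or 5 or semaglutide mouse 14 was left out (adjusted p up to 0.066), and 192 exon bases of Bax are shared with the same-strand gene model Gm45808, so its count is uncertain to that extent.

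Ccng1 (cyclin G1, a p53 target that binds a phosphatase acting on Mdm2, chr11:40748552-40755311, minus strand) went the other way. Vehicle-treated mice 1 to 5 had 15284, 16187, 16414, 15194 and 14029 normalized counts, semaglutide-treated mice 13 to 17 had 16833, 9959, 11140, 6825 and 9252, and semaglutide + ketone ester–treated mice 19, 21 and 22 had 17485, 24521 and 22531. Mouse 13 was above every vehicle-treated mouse and the 4 other semaglutide-treated mice were below all of them. The log2 fold change against vehicle was -0.58 (SE 0.19, adjusted p = 0.046, limma), and -0.75 (adjusted p = 0.0020) without mouse 13. The call was lost on leaving out any 1 of the other mice except mouse 19 (adjusted p up to 0.102) and in 5 of the 12 other settings, edgeR among them (adjusted p = 0.054).

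Trp53inp1 (a nuclear protein that enhances p53 activity, chr4:11156431-11174379, plus strand) had 184, 272, 152, 285 and 146 normalized counts under vehicle, 140, 289, 329, 394 and 441 under semaglutide and 166, 256 and 195 with the ketone ester. Its log2 fold change against vehicle was 0.57 (SE 0.30, adjusted p = 0.18, limma) with all mice and 0.84 (adjusted p = 0.014) without mouse 13, which had the lowest value of all. Whether it counted among the targets that rose therefore turned on that mouse.

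Mdm2, the ligase that limits p53 (chr10:117688875-117710758, minus strand), had 1014, 1046, 978, 937 and 883 normalized counts under vehicle, 1131, 1109, 993, 872 and 912 under semaglutide and 1096, 954 and 924 with the ketone ester. The groups overlapped, and the log2 fold change of semaglutide against vehicle was 0.04 (95% interval -0.16 to 0.25), an interval that does not reach the change of any of the targets that rose with all mice.
Zmat3, an RNA-binding zinc-finger protein (chr3:32334792-32366014, minus strand), averaged 230, 232 and 198 normalized counts with vehicle, semaglutide and semaglutide + ketone ester (SD 30.0, 58.4 and 10.4), and none of its 3 differences passed the test. Its highest value, 320, was that of mouse 13.
Phlda3, which opposes Akt signalling (chr1:135766119-135769136, plus strand), had 1836 in mouse 13 against 3772 to 4780 in the other semaglutide-treated mice and 3645 to 4228 under vehicle. Its log2 fold change was -0.08 (95% interval -0.58 to 0.42).

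**Figure D2:**
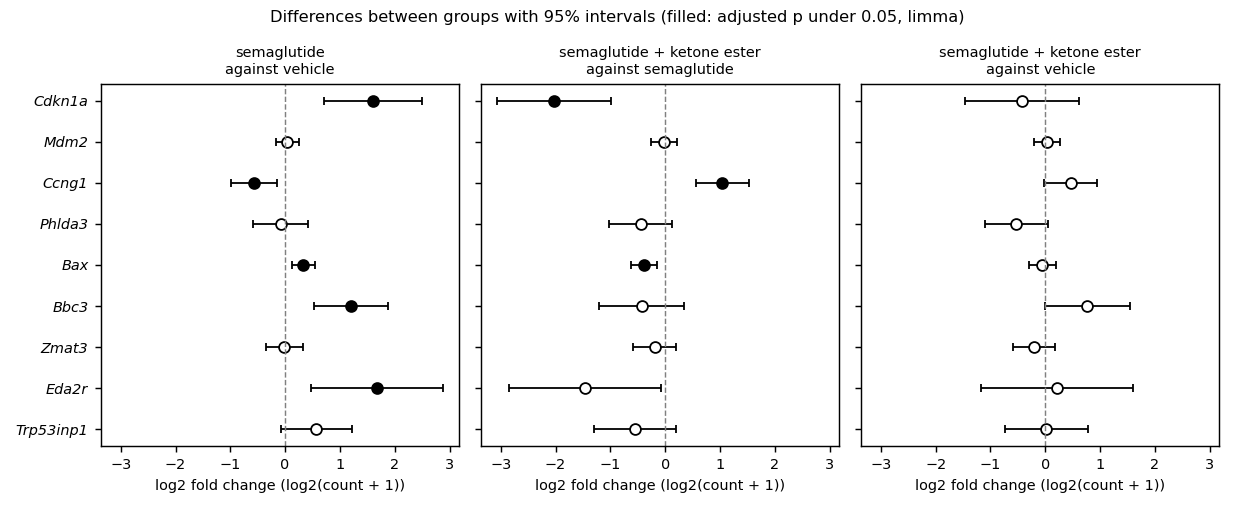
Log2 fold changes (x axis) of the 9 targets in the 3 comparisons, with 95% intervals from the limma fit; filled points have an adjusted p under 0.05. Cdkn1a is at 1.60 for semaglutide against vehicle and at -2.02 for semaglutide + ketone ester against semaglutide, Ccng1 is at -0.58 and 1.04, and Mdm2 is near 0 in all 3 panels.

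Semaglutide + ketone ester was then set against semaglutide alone. This comparison uses the same semaglutide-treated mice as the first, so that opposite signs in the 2 comparisons are in part fixed by those shared animals. Cdkn1a and Bax fell, Ccng1 rose, and the other 6 targets did not pass the test, beside 9.3% of all genes called lower and 9.09% called higher. Cdkn1a went from 812 ± 391 (SD, n = 5) to 183 ± 80.3 (SD, n = 3), a log2 fold change of -2.02 (SE 0.48, adjusted p = 0.014, limma). Mouse 13 lay within the range of the ketone ester mice, and the 4 other semaglutide-treated mice lay above it. The Cdkn1a call was lost without ketone ester mouse 21 (-1.80, adjusted p = 0.070) or mouse 22 (-1.91, adjusted p = 0.064), and when the vehicle-treated mice were left out of the fit (adjusted p = 0.062).

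For Ccng1, the lowest of the 3 mice on ketone ester exceeded the highest on semaglutide alone, mouse 13 included, with means of 21512 ± 3627 (SD, n = 3) and 10802 ± 3722 (SD, n = 5). The log2 fold change was 1.04 (SE 0.22, adjusted p = 0.0089, limma), and the call was kept on leaving out any single mouse but not in a fit without the vehicle-treated mice (adjusted p = 0.056). Among all genes tested, 9.96% had groups that did not overlap in this direction. Bax also separated the groups fully, with all ketone ester mice (124, 121 and 137) below all semaglutide-treated mice, a log2 fold change of -0.39 (SE 0.11, adjusted p = 0.033, limma) in a direction in which 10.2% of genes did not overlap. Its call was lost without semaglutide mouse 14 or 17 or any of the 3 ketone ester mice, with adjusted p up to 0.121.

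Eda2r fell short of the threshold in this comparison, with a log2 fold change of -1.47 (SE 0.64, adjusted p = 0.13, limma), and so did Bbc3, at -0.43 (SE 0.36, adjusted p = 0.43). Trp53inp1 was at -0.55 (adjusted p = 0.28), Phlda3 at -0.45 (adjusted p = 0.25), Zmat3 at -0.19 (adjusted p = 0.48) and Mdm2 at -0.01 (adjusted p = 0.94). Without mouse 13 the lower calls grew from 2 to 5, beside 16.2% of all genes: Cdkn1a at -2.44, Eda2r at -2.03 (adjusted p = 0.0030), Phlda3 at -0.69 (adjusted p = 0.0059), Bax at -0.44 and Trp53inp1 at -0.82 (adjusted p = 0.032). Ccng1 remained the higher one, at 1.22, beside 15.9%. The ketone ester mice differed among themselves, since mouse 19 had the highest Cdkn1a, Eda2r and Phlda3 and the lowest Ccng1 and Trp53inp1 of the 3.

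Against vehicle, semaglutide + ketone ester gave no call among the 9 targets by limma, at the adjusted threshold or at an unadjusted p under 0.05, nor with edgeR or DESeq2. Among all genes tested, 0.0732% were called higher and 0.163% lower, so few genes of any kind were called between these groups of 5 and 3 mice. The interval for Cdkn1a ran from -1.46 to 0.62 around -0.42 and that for Eda2r from -1.18 to 1.60 around 0.21, wide enough to hold sizeable changes either way. All 3 ketone ester mice were above all vehicle-treated mice for Ccng1 (log2 fold change 0.47, 95% interval -0.015 to 0.95), as were 5.45% of genes, and below them for Phlda3 (-0.53, 95% interval -1.11 to 0.047), as were 5.88%. For Bbc3 the log2 fold change was 0.77 (95% interval -0.0093 to 1.55) and the groups overlapped.

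By the criterion of the study's methods (analysis of variance over the 3 groups on normalized counts and a 1.5-fold span between group means), 4 targets were altered: Cdkn1a, Ccng1, Bbc3 and Eda2r. The same criterion marked 16.1% of all genes tested.

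Whether the other targets followed Cdkn1a was also read mouse by mouse. Cdkn1a split the animals into separate clusters, 9 mice at or below 347 normalized counts and 4 semaglutide-treated mice at or above 748, with a gap of 1.11 on the log2 scale against at most 0.45 between other neighbours, so that no single correlation with a p over all 13 mice is given. The 4 mice of the upper cluster were also above all 9 others for Eda2r (1036 to 2284 against 245 to 894), Bbc3 (31.1 to 47.7 against 9.15 to 27.6), Bax (159 to 201 against 121 to 148) and Trp53inp1 (289 to 441 against 140 to 285). For Ccng1 they were below all 9. Among all genes tested, 9.29% lay higher and 9.66% lower in the same 4 mice than in all 9 others, the split that the first principal component also makes. For Mdm2 (872 to 1109 against 883 to 1131), Zmat3 (175 to 261 against 185 to 320) and Phlda3 (3772 to 4780 against 1836 to 4228) the clusters overlapped.

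**Figure D3:**
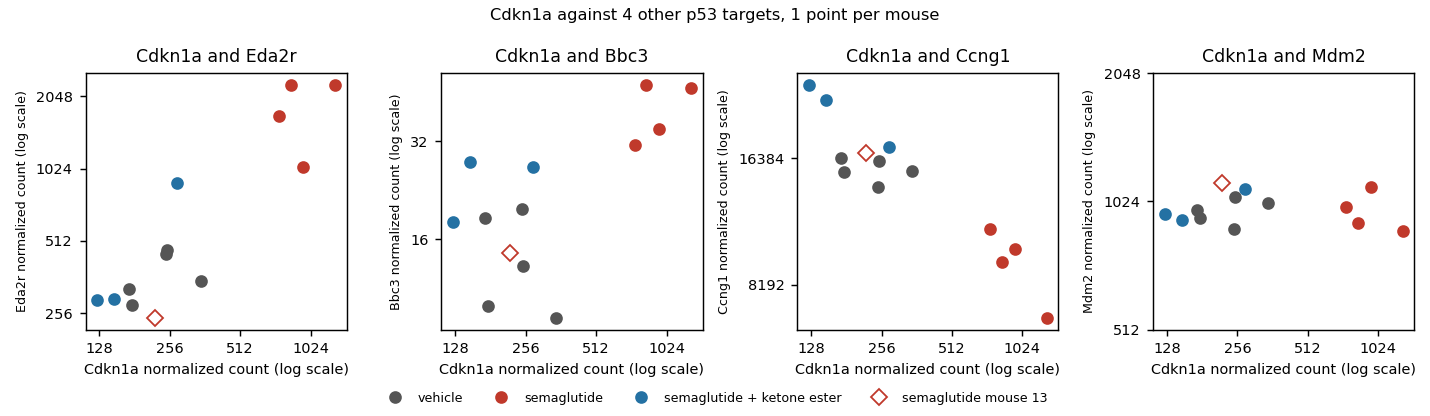
Normalized counts of Cdkn1a (x axis) against Eda2r, Bbc3, Ccng1 and Mdm2 (y axes), all on log scales, 1 point per mouse, coloured by group. The 4 semaglutide-treated mice with Cdkn1a of 748 or more stand apart at high Eda2r and Bbc3 and at low Ccng1, while Mdm2 stays between 872 and 1131 across all 13 mice.

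Within the 9 mice of the lower cluster, which come from all 3 groups, none of the 8 correlations with Cdkn1a passed adjustment. The strongest was Ccng1, with Pearson's r = -0.72 (two-sided exact permutation p = 0.027, adjusted p = 0.21 over the 8 pairs) and Spearman's rho = -0.50 (exact permutation p = 0.18), and r was -0.52 without the 2 mice farthest from the median of Cdkn1a (ketone ester mouse 21 and vehicle mouse 1). Eda2r had r = 0.53 (exact permutation p = 0.14, adjusted p = 0.46), rho = 0.63 (exact permutation p = 0.076) and r = 0.73 without those mice. Neither relation can be called at n = 9. These 9 mice were set by a cut on Cdkn1a itself, which narrows its range. The permutations ran across groups, so differences between groups and between mice of a group are mixed in these values.

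As a description over all 13 mice, which share the cluster split, Eda2r ranked 158 of 12302 genes by its r with Cdkn1a (0.91), Bax 322 (0.88), Bbc3 1777 (0.68), Trp53inp1 1901 (0.66) and Phlda3 2348 (0.60). Mdm2 ranked 6442 (-0.06) and Zmat3 7239 (-0.18), near the middle. Ccng1 ranked 12239 (-0.94), close to the negative end, with the largest r in size of the 8 targets. The 8 genes most like Cdkn1a were Mknk2 (r = 0.99), which encodes a kinase of the translation factor eIF4E, Myo18a (0.97), Atp6v0d1, Gsr, Galnt15, Psmd3, Lmf2 and Ubxn4 (0.96 each). None of these 8 is on the p53 lists used here. With each group mean subtracted, r with Cdkn1a was 0.88 for Eda2r, 0.83 for Phlda3, 0.65 for Bax, 0.63 for Bbc3 and 0.50 for Trp53inp1. For Mdm2 it was -0.25, for Zmat3 -0.62 and for Ccng1 -0.90. These values include mouse 13 and are given without a p, as a description.

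The same question was put to 38 further p53 targets, of which 33 were tested and 5 (Gdf15, Gtse1, Pmaip1, Spata18 and Gls2) had means under 10 normalized counts. Under semaglutide 5 rose against vehicle, 3 fell and 25 did not pass, shares of 33 genes to be read beside the 11.9% and 13.2% of all genes. Without mouse 13, 6 of 32 tested were higher and 5 lower, beside 17.3% and 18.8%. Of all the listed genes called with all mice, only Nfkb2 lost its call without mouse 13 (-0.27, adjusted p = 0.059, limma). The median log2 fold change of the 33 was 0.053, against 0.33 over the 9 targets. Both lists were chosen with earlier results of these data known, and the 9 include Cdkn1a itself, so this contrast is a description only.

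Of the targets that act on cell cycle and growth, Gadd45a (a stress sensor that is also a known atrophy gene, log2 fold change 1.40, adjusted p = 0.0073, limma), Sesn1 (a leucine-sensing brake on mTORC1, 1.30, adjusted p = 0.038) and Ninj1 (a membrane protein, 0.49, adjusted p = 0.0042) rose, and the other 8 of 11 did not pass. The counts of each sub-list stand beside 11.9% higher and 13.2% lower calls over all genes. Gadd45a had 200.5 to 316 normalized counts under vehicle and 344, 427, 1176, 1018 and 878 in semaglutide-treated mice 13 to 17. Sesn1 had 271 to 415 under vehicle and 277, 612, 1273, 1694 and 1579 under semaglutide, with mouse 13 at the bottom as for Cdkn1a. For Ninj1 and Gadd45a, mouse 13 lay above the vehicle range.
Of those in cell death, Siva1 rose (0.40, adjusted p = 0.036), Ei24 fell (-0.43, adjusted p = 0.042) and 8 of 10 did not pass, beside the same 11.9% and 13.2%. Of those in DNA repair and metabolism, Xpc (damage recognition in nucleotide excision repair) rose (0.58, adjusted p = 0.018), while Cmbl, a hydrolase, fell (-1.34, adjusted p = 0.0070) and Aldh4a1, an enzyme of proline breakdown, fell (-0.72, adjusted p = 0.0084). Cmbl had 787 to 940 under vehicle, 838 in mouse 13 and 203 to 318 in the 4 other semaglutide-treated mice, so mouse 13 lay inside the vehicle range.

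With the ketone ester added to semaglutide, 2 of the 33 further targets rose and 4 fell, beside 9.09% and 9.3% of all genes. The counts moved with the setting. They were 6 higher and 8 lower of 32 without mouse 13, beside 15.9% and 16.2% of all genes. With DESeq2 they were 2 and 8, beside 11.1% and 12.9%, and with equal totals 2 and 9, beside 4.97% and 29.2%. In the main fit those that fell were Fas, a death receptor (-0.89, adjusted p = 0.025, limma), Ninj1 (-0.84, adjusted p = 0.0016), Siva1 (-0.64, adjusted p = 0.011) and Plk3 (-1.22, adjusted p = 0.037). Plk3 averaged 9.56, 18.6 and 7.25 normalized counts under vehicle, semaglutide and semaglutide + ketone ester. It passed the filter on means only through the semaglutide group, so its call carries no weight. Those that rose were Cmbl (1.63, adjusted p = 0.0078) and Aldh4a1 (1.06, adjusted p = 0.0039). Gadd45a was at -1.07 (adjusted p = 0.053) and Sesn1 at -1.38 (adjusted p = 0.062). Against vehicle, the ketone ester group gave no call among the 33 by limma, beside 0.0732% higher and 0.163% lower calls over all genes. With edgeR there was also none, beside 0.138% and 0.228%, and with DESeq2 1 lower call, beside 0.832%. By limma 4 genes had an unadjusted p under 0.05, a count whose share over all genes is not given, so nothing is read from it. Rescaling all libraries to equal totals moved the median of all genes to 0.17 in semaglutide against vehicle. It then gave 7 higher and 2 lower calls among the 33, beside 26.5% and 7.55% of all genes.

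**Figure D4:**
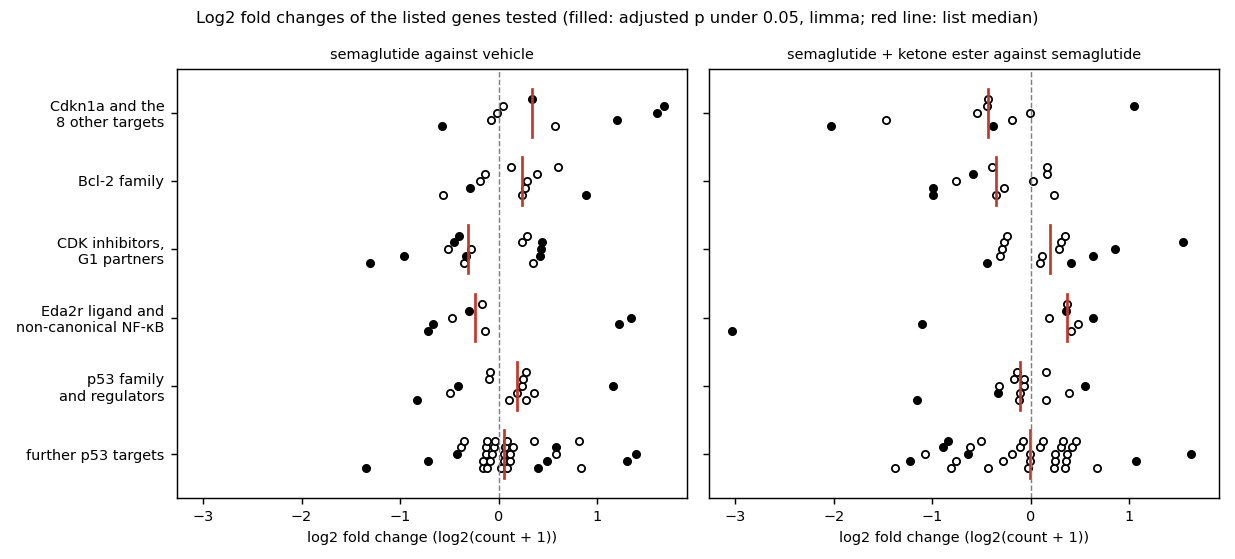
Log2 fold changes (x axis) of the tested genes of 6 lists (y axis) in 2 comparisons that share the semaglutide-treated mice; filled points have an adjusted p under 0.05 and red lines are list medians. The 33 further p53 targets centre on 0.053 and -0.013, against 0.33 and -0.43 for Cdkn1a and the 8 other targets.

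Transcripts of p53 itself and of most of its regulators did not pass the test. Trp53 had 229 to 323 normalized counts under vehicle, 288 to 363 under semaglutide and 275 to 295 with the ketone ester, a log2 fold change of 0.24 for semaglutide against vehicle (adjusted p = 0.12, limma). The mRNA level says nothing of p53 protein, which is mainly set by its stability. Mdm4, the partner of Mdm2 that blocks p53, was at 0.27 (adjusted p = 0.0504) in that comparison and fell with the ketone ester against semaglutide (-0.34, adjusted p = 0.049). Trp63, the p53 relative best known from epithelia, rose under semaglutide (1.16, adjusted p = 0.012) and fell with the ketone ester (-1.16, adjusted p = 0.030). Its values were 801, 878, 992, 472 and 1105 in semaglutide-treated mice 13 to 17 against 268 to 474 under vehicle, so that here mouse 13 was high and mouse 16 was low, unlike for Cdkn1a. Trp53bp1, a scaffold at DNA breaks, fell (-0.83, adjusted p = 0.00082) and rose with the ketone ester (0.55, adjusted p = 0.018), and the ubiquitin ligase Cop1 fell under semaglutide (-0.41). In all, 1 of 13 tested members of this list was higher and 2 were lower in each of these comparisons, beside 11.9% and 13.2% of all genes in the first and 9.09% and 9.3% in the second. Without mouse 13 the counts were 3 and 3 in the first, beside 17.3% and 18.8% of all genes. In the second they were 2 and 3, beside 15.9% and 16.2%. With equal totals they were 7 and 1 in the first, beside 26.5% and 7.55%. In the second they were then 0 and 5, beside 4.97% and 29.2%.

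Among the cyclin-dependent kinase inhibitors and their G1 partners, 3 of 14 were higher and 5 lower under semaglutide, beside 11.9% and 13.2% of all genes. The counts were 5 and 5 without mouse 13, beside 17.3% and 18.8%, and 3 and 2 with equal totals, beside 26.5% and 7.55%. Cyclin D1 (Ccnd1), the partner of Cdk4 in G1, fell (-1.30, adjusted p = 0.0023, limma), from 76.7 to 109 normalized counts under vehicle to 59.0, 27.0, 22.2, 49.5 and 32.8 in semaglutide-treated mice 13 to 17, which do not overlap. Of all genes tested, 7.45% did not overlap in this direction. Ccne2 (-0.96), Ccnd3 (-0.45), Cdkn1c (-0.40) and Cdkn2d (-0.33) also fell, and Cdk4 (0.44), Cdkn2c (0.43) and Pcna (0.42) rose. Cdkn2d, Cdk4, Cdkn2c and Pcna were named after their values were seen, to complete the count. With the ketone ester against semaglutide, Ccnd1 (1.54), Ccne2 (0.85), Cdkn1c (0.63) and Cdkn2d (0.41) rose and Cdk4 fell (-0.44), beside 9.09% higher and 9.3% lower calls over all genes. This balance of 4 higher and 1 lower was 5 and 3 without mouse 13, beside 15.9% and 16.2% of all genes. It turned to 2 and 3 with equal totals, beside 4.97% and 29.2%. Of 10 markers of cycling cells, 8 had means under 10 normalized counts, so proliferation could not be read from them. Rrm2 (0.31, adjusted p = 0.56, limma) and Mcm5 (0.40, adjusted p = 0.24), also named after their values were seen, did not pass the test under semaglutide against vehicle.

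In the Bcl-2 family, to which Bax and Bbc3 belong, Bnip3 rose (0.89, adjusted p = 0.017, limma) and Bcl2l2 fell (-0.29) under semaglutide, and 9 of 11 did not pass, beside 11.9% higher and 13.2% lower calls over all genes. Higher calls there numbered 3 with edgeR (beside 14.4% of all genes) or equal totals (26.5%). They numbered 4 with DESeq2 (15.1%) or without mouse 13 (17.3%). With the ketone ester against semaglutide, Bnip3 (-0.99), Mcl1 (-0.59) and the anti-apoptotic Bcl2l1 (-0.99, adjusted p = 0.023) fell, 3 of 11 beside 9.3% of all genes. Lower calls numbered 4 without mouse 13, beside 16.2%, and 5 with equal totals, beside 29.2%. Around Eda2r, the kinase Map3k14 (NIK) of the non-canonical NF-κB pathway rose under semaglutide (1.22, adjusted p = 0.00053), and its values of 259, 338, 382, 389 and 341 in mice 13 to 17 were all above the vehicle range of 114 to 186. Of all genes tested, 7.22% were likewise higher in every semaglutide-treated mouse. The TWEAK receptor Tnfrsf12a, another muscle receptor that signals to NF-κB, rose (1.34, adjusted p = 0.033) and then fell with the ketone ester (-3.03, adjusted p = 0.0025). Relb (-0.72), Traf3 (-0.67) and Nfkb2 (-0.30, named after its value was seen) fell under semaglutide, while the ligand gene Eda was at -0.47 (adjusted p = 0.16). Map3k14 fell with the ketone ester (-1.10, adjusted p = 0.0034), as Relb (0.63) and Nfkb2 (0.36) rose. Of 8 tested around Eda2r, 2 were higher and 3 lower under semaglutide, beside 11.9% and 13.2% of all genes. The counts were 2 and 2 without mouse 13 (beside 17.3% and 18.8%) and 2 and 1 with equal totals (26.5% and 7.55%). With the ketone ester 2 were higher and 2 lower, beside 9.09% and 9.3%. There the counts were 4 and 2 without mouse 13 (15.9% and 16.2%) and 0 and 2 with equal totals (4.97% and 29.2%).

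Regulators that can induce Cdkn1a in muscle without p53 were mixed. Myod1 (1.61, adjusted p = 0.0011, limma), Runx1 (0.77) and Atf4 (0.56) rose under semaglutide and Smad3 (-1.09), Foxo1 (-1.03, adjusted p = 0.018) and Nr3c1 (-0.74) fell, with 4 of 10 not passing, beside 11.9% higher and 13.2% lower calls over all genes. With the ketone ester against semaglutide, Foxo1 (-1.09), Atf4 (-0.69) and Foxo3 (-0.53) fell, beside 9.3% of all genes. Lower calls numbered 4 without mouse 13 (beside 16.2%), 5 with edgeR (11%), 6 with DESeq2 (12.9%) and 7 with equal totals (29.2%). Foxo1, a driver of muscle atrophy genes, was also lower in the ketone ester group than under vehicle (-2.12, adjusted p = 0.028), at 302 to 553 normalized counts against 1175 to 2745, groups that do not overlap. Of all genes tested, 5.88% did not overlap in this direction. Atf4, Nr3c1 and Foxo3 were named after their values were seen.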

How the data were processed

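Whole gastrocnemius RNA was sequenced from 13 mice (stranded mRNA libraries, paired ends), 1 library each, with 1 batch date for all. Per the labels, the authors aligned reads to mm10 with DRAGEN and named DESeq2. The counting tool and annotation are not given in the sources used here. The deposited values are signal: gene counts divided by a size factor per library. All of them (100%, within 0.01) were whole multiples of 1 step per library, so whole reads were recovered (15319471 to 23498162 per mouse). Here the deposited values were tested with limma 3.58.1 in R 4.3.3 on log2(value + 1), so that fold changes of low genes are understated, over 12303 genes with a mean of at least 10, all 3 groups in 1 fit without trend, with Benjamini-Hochberg adjustment and a threshold of 0.05. Groups came from the labels, which do not pair mice. p-values measure the spread between single mice. The members and lists were chosen with earlier results of these data known. From each further list, up to 4 genes past the threshold with the largest change in the comparisons with semaglutide were named, and Trp53 and Mdm4 in any case. Pairs of genes were tested with exact permutation tests over all pairings of mice, with the coefficients taken from scipy 1.17.1. Alternatives were pseudocounts of 0.5 and 5, no filter or a minimum of 50, equal totals, quantile normalization, TMM, edgeR 4.0.16 and DESeq2 1.42.0 on whole reads, trend, sample weights, 2-group fits and leaving out each mouse. The limma step was tested on simulated data. Coordinates are from GENCODE M21 (GRCm38), matched by symbol.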

Additional observations from a re-analysis of the deposited data

Results flagged for a closer look

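Phlda3 in vehicle mouse 5 was far from its group: it had 4227.61 normalized counts against 3645.29 to 3747.72 in the 4 other vehicle-treated mice, a gap of 0.824 of the group's range where 0.710 is the 95% critical value of Dixon's test for 5 samples. It was 1 of 18 groups checked, and chance marks about 1 group in 20.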

How the results depend on the processing

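The rise of Cdkn1a and of Bbc3 under semaglutide kept its direction and its side of the threshold in every alternative run (Bbc3 could not be fitted with a minimum of 50). The fall of Ccng1, the only lower call there, dropped out with no filter, equal totals, quantile normalization, edgeR and a 2-group fit, leaving 0 lower calls. On leaving out 1 mouse at a time, higher calls in that comparison numbered 2 to 5 and lower calls 0 to 1. For semaglutide + ketone ester against semaglutide, lower calls numbered 1 with no filter, 4 with sample weights and 0 with a 2-group fit, which also gave 0 higher calls, and 0 to 5 without 1 mouse. Cdkn1a there was -2.02 but no longer past the threshold (adjusted p = 0.062) with a 2-group fit, and -2.44 to -1.80 without 1 mouse. Fits on 2 groups have fewer mice, and the cause of the other changes was not tested. Signs turned only for differences that passed the test in neither setting, all of which were small except Eda2r in semaglutide + ketone ester against vehicle. Under semaglutide Mdm2 was -0.0020 with quantile normalization and -0.0033 to 0.090 without 1 mouse. Phlda3 was 0.092 with equal totals, 0.0014 with edgeR, 0.15 with sample weights and -0.19 to 0.16 without 1 mouse. Zmat3 was 0.16 with equal totals, 0.014 with quantile normalization, 0.020 with edgeR, 0.014 with DESeq2 and -0.14 to 0.080 without 1 mouse. Between the semaglutide groups Mdm2 was 0.055 with quantile normalization, 0.0098 with sample weights and -0.088 to 0.035 without 1 mouse. Against vehicle with the ketone ester, Mdm2 was -0.035 with equal totals and -0.046 to 0.076 without 1 mouse, Trp53inp1 -0.042 with equal totals, -0.0058 with DESeq2 and -0.15 to 0.16 without 1 mouse, and Eda2r -0.33 to 0.48 without 1 mouse. The r of Cdkn1a with Zmat3 over 9 mice was -0.10 without ketone ester mouse 21, in a range of -0.10 to 0.24 without 1 mouse. Equal totals changed the split of all calls from 11.9% higher and 13.2% lower to 26.5% and 7.55% in semaglutide against vehicle, and from 9.09% and 9.3% to 4.97% and 29.2% in semaglutide + ketone ester against semaglutide. Over all genes, 1459 higher and 1625 lower calls in semaglutide against vehicle became 1769 and 1542 with edgeR on whole reads. For semaglutide + ketone ester against vehicle, 9 and 20 became 17 and 28 with edgeR, 69 and 102 with DESeq2 and 29 and 48 without mouse 13. Between the semaglutide groups 1118 and 1144 became 1961 and 1993 without mouse 13, and 816 and 885 without ketone ester mouse 19. No paired analysis was possible because the labels give the groups no shared replicate numbers. With 3 mice on ketone ester, and 8 to 64 reads for Bbc3, small differences were not detectable.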
